A study of Mus musculus with 4 samples.

Results

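The genes that add methyl groups to histone lysines or take them off were followed in mouse pachytene spermatocytes, the male germ cells in the long stage of meiotic prophase when homologous chromosomes are paired. The genes were chosen by symbol alone: all Kdm and Kmt genes with a number and a letter, all Setd and Setdb genes, and Ezh, Suv39h, Ehmt, Nsd, Smyd, Dot1l and Ash1l genes. That rule was met by 52 of the 50763 genes counted, and 51 of them had enough reads to be tested. The exception was Setd9-ps, whose symbol is that of a pseudogene and which had 8 and 5 counts in the knockdown libraries and 12 and 2 counts in the WT libraries. The 2 groups were pachytene spermatocytes with an Hsf5 knockdown (2 libraries) and wild-type (WT) pachytene spermatocytes (2 libraries), both purified from testis. HSF5 is a transcription factor of the heat shock factor family, found in testis. The sources used here give neither the way the knockdown was made nor the strain or age of the mice. The labels call the replicates biological without naming animals, so p-values cover only how far these libraries spread, which may be technical.

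Lysine methyltransferases carry a SET domain (DOT1L has a different fold) and demethylases are either amine oxidases of the LSD type or JmjC oxygenases. Methylation of H3K4 marks active promoters, that of H3K36 and H3K79 marks transcribed gene bodies, and that of H3K9, H3K27 and H4K20 goes with silent chromatin. In the male germ line these marks change through meiosis: H3K9 methylation is placed and removed during prophase, and the X and Y chromosomes are transcriptionally silenced in pachytene.

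The libraries held 33947608 to 42479164 counts in the knockdown and 33287428 to 39331933 in WT. Levels are given as CPM (counts scaled to a common library size) after TMM scaling. Hsf5 itself stood at 287.2 and 237.9 CPM in the knockdown libraries, against 586.4 and 449.4 CPM in the WT libraries (log2 fold change -0.98, SE 0.31). That fall did not pass without WT replicate 1, without WT replicate 2, or with library totals as the only scaling (log2 fold change -0.55; edgeR, adjusted p = 0.115). The labelled cell type was checked on marker lists. The 10 pachytene markers were detected in every group and summed to 3370 and 2690 CPM in the knockdown libraries, against 15200 and 15100 CPM in WT, and all 10 fell. The 12 spermatid markers all fell, to sums of 22.4 and 13.8 CPM in the knockdown libraries, against 4060 and 2010 CPM in WT, and Prm2, Smcp and Cylc2 had no count in either knockdown library. Of the 12 spermatogonial markers 9 rose, with sums of 811 and 757 CPM in knockdown cells and 182 and 173 CPM in WT. Of the 10 leptotene and zygotene markers 5 rose and 1 fell, with sums of 1660 and 884 CPM in knockdown cells and 696 and 537 CPM in WT. The 12 Sertoli cell markers all rose, with sums of 4040 and 4910 CPM in knockdown cells and 260 and 571 CPM in WT. The 8 Leydig cell markers all rose as well, with sums of 1500 and 3030 CPM against 122 and 827 CPM in WT. Of the peritubular markers 4 of 5 rose (sums of 133 and 86.5 CPM, against 6.5 and 17 CPM in WT), of the macrophage and immune markers 7 of 8 (177 and 56.4 CPM, against 11.6 and 12.8 CPM) and of the endothelial markers 3 of 6 (24.4 and 49.7 CPM, against 11.2 and 19 CPM). No marker of the other lists was without a count in both libraries of a group. These marker lists differed between the same libraries in which the gene groups described next were compared, and their part in those groups was not tested.

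As a set, the methylation genes were more often higher than lower in the knockdown. With edgeR's quasi-likelihood test at an adjusted p of 0.05, 26 of the 51 tested genes rose and 5 fell, while 20 did not pass. Over all 23594 genes tested 27.4% rose and 33.5% fell, which is 60.9% in either direction. Both knockdown libraries lay above both WT libraries for 30 of the 52 genes and below them for 9, against 39.0% and 43.7% of all genes tested. The median log2 fold change was 0.90 for the 51 genes and -0.12 for all genes, a difference of 1.02. All-gene medians moved with the scaling (0.31 with library totals only, -0.71 on a meiotic-axis scaling that sets synaptonemal complex and cohesin genes equal), and the difference was 1.03 and 1.02 under those scalings. A change of scaling shifts all genes by about the same amount, so this difference could hardly move and is no check. The split itself depended on the scaling: 11 rose and 10 fell on the meiotic-axis scaling, and 29 rose and 4 fell with library totals only. Of all 23594 genes tested, 3670 rose and 9298 fell on the meiotic-axis scaling, and 8121 rose and 6680 fell with library totals only. None of the 31 genes past the test changed sign under any scaling or when 1 library was left out. In bulk RNA, fewer cells of a type and less RNA per cell cannot be told apart.

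**Figure D1:**
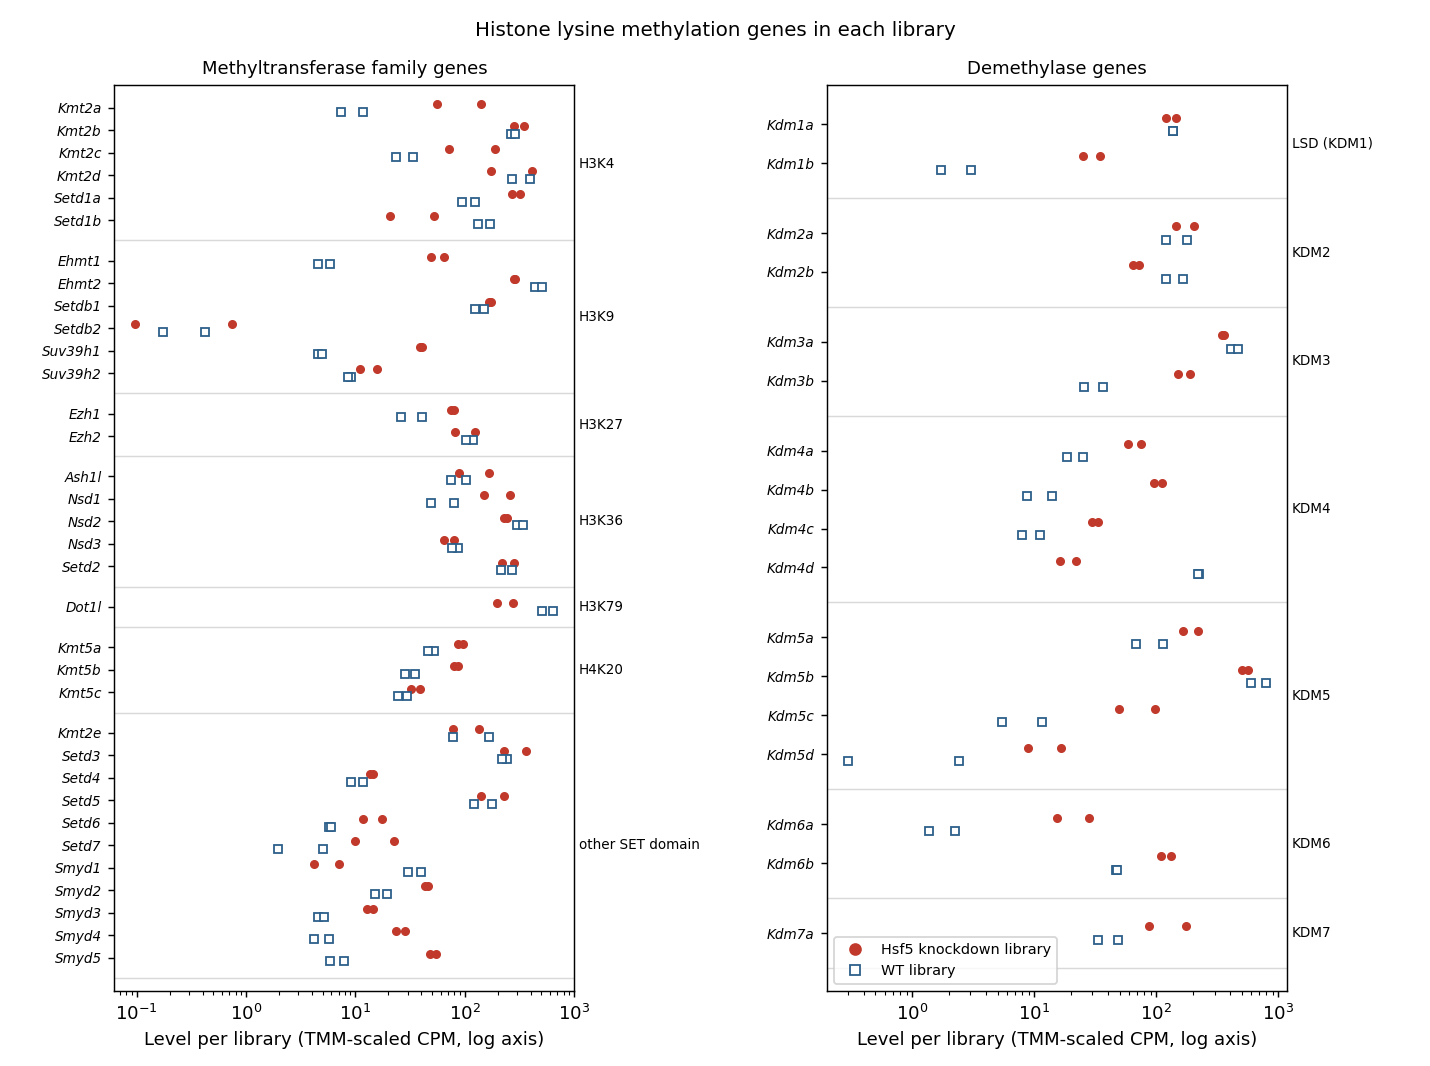
Level of each tested gene in each library (TMM-scaled CPM, log axis). Methyltransferase genes are grouped by the histone lysine acted on or as other SET domain genes, and demethylase genes by family. Filled circles are the 2 Hsf5 knockdown libraries and open squares the 2 WT libraries. Circles lie right of the squares for most rows, as for Ehmt1 (48.6 and 64.4 CPM in knockdown cells, 4.56 and 5.84 CPM in WT), and left of them in 9 rows, among them Kdm4d, Smyd1, Setd1b, Dot1l and Kdm2b.

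Of the 17 demethylase genes 11 rose, 2 fell and 4 did not pass, with a median log2 fold change of 1.61. Of the 34 methyltransferase family genes 15 rose, 3 fell and 16 did not pass, with a median of 0.52. The difference between these classes was not tested. Over all genes tested 27.4% rose and 33.5% fell, which is the background for these counts and for those of each enzyme group below. Summed over genes, both classes overlapped between the groups: demethylase genes took 2030 and 2430 CPM in knockdown cells and 1830 and 2270 CPM in WT, and methyltransferase family genes 3560 and 4470 CPM in knockdown cells and 3390 and 4130 CPM in WT. At a mean level of at least 100 CPM there were 22 of these genes, of which 4 rose and 3 fell, while 14.9% of all genes at that level rose and 44.1% fell. At 30 to 100 CPM 12 of 15 rose and 1 fell, against 32% and 28.7% of all genes. At 10 to 30 CPM 7 of 10 rose and 1 fell, against 43.1% and 26.5%. At 1 to 10 CPM 3 of 3 rose, while 29.3% of all genes rose and 35.6% fell, and the 1 gene under 1 CPM did not pass.

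**Figure D2:**
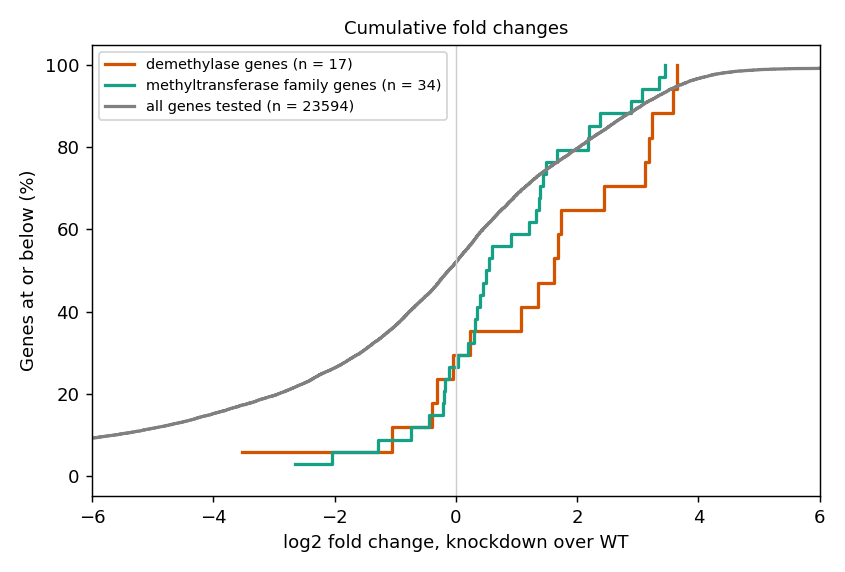
Cumulative share of genes (vertical axis, %) at or below each log2 fold change of knockdown over WT (horizontal axis) for the 17 demethylase genes, the 34 methyltransferase family genes and all 23594 genes tested. Both curves of methylation genes lie right of that of all genes below a log2 fold change of 1, and the demethylase median is 1.61 against 0.52 and -0.12.

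The windows of 250 bases before the annotated starts are shown for the genes that stand for the patterns described next. These are the X-linked genes Kdm5c and Kdm6a that rose, the genes with the largest falls (Kdm4d and Smyd1), and Ezh1 and Kdm5b, whose windows hold a heat shock element. Sequences are from RefSeq, build GRCm38.p6, an older build than the mm39 of the counts, matched by symbol and written 5′ to 3′ on the gene's strand. Capitals mark a heat shock element core, GAANNTTC or TTCNNGAA, or a MYB core, AACNGTT. Whether HSF5 binds these letters was not tested. Each of these motifs reads the same on both strands, and matches of different motifs may overlap.
Kdm5c: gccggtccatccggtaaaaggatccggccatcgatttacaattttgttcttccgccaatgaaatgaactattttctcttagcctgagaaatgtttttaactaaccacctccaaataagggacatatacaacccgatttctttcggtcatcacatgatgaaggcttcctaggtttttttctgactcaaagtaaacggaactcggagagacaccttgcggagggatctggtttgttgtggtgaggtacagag
Kdm6a: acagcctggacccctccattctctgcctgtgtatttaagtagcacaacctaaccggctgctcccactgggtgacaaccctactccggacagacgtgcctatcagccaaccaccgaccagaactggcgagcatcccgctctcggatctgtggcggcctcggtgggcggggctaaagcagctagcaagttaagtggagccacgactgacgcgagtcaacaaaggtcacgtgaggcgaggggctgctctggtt
Kdm4d: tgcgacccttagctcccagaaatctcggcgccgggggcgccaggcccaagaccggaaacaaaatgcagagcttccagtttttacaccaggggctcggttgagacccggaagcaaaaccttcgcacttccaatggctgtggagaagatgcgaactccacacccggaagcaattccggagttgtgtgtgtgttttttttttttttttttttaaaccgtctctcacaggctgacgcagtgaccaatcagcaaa
Smyd1: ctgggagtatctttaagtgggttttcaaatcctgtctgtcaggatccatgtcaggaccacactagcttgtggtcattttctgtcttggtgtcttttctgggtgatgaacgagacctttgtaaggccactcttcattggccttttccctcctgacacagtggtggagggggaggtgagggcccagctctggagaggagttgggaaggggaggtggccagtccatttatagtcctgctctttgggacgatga
Ezh1: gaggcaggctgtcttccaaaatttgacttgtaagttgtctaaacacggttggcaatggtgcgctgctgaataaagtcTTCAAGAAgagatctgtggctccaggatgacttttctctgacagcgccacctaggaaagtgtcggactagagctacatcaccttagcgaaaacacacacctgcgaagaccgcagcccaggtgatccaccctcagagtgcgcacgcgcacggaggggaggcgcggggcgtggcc
Kdm5b: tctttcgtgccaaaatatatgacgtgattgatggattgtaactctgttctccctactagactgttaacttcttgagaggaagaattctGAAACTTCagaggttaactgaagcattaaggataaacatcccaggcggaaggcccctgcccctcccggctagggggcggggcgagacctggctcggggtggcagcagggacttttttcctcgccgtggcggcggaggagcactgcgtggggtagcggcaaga
The windows lie at chrX:152232977-152233226 (+) for Kdm5c, chrX:18162325-18162574 (+) for Kdm6a, chr9:14500483-14500732 (-) for Kdm4d, chr6:71262282-71262531 (-) for Smyd1, chr11:101226464-101226713 (-) for Ezh1 and chr1:134559928-134560177 (+) for Kdm5b. Each ends at the base before an annotated transcript start.

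RefSeq starts were found for 38 of the 52 genes, with 50 windows in all. The members' windows were rich in CpG, the dinucleotide at which vertebrate DNA is methylated: the median was 21.5 CpGs per window, against 11 over the 20408 windows of all genes tested. Windows of genes that rose had a median of 19 CpGs (25 windows), those of genes that fell 27 (7 windows, 4 of them of Kdm2b) and those of genes that did not pass 23.5 (18 windows). Among genes that fell, the muscle gene Smyd1 had 2 CpGs, Kdm4d 14 and Dot1l 44. Windows with 0 CpGs were found for Setd5, Kdm3a and Kdm4c, none of which fell. Kdm3a had other windows with 31 and 20 CpGs, and Kdm4c another with 19. Setd1b, which fell, had no window. A heat shock element core was found in 4 of the 50 windows (8%), 1 each of Ezh1, Kmt5a, Kdm3a and Kdm5b, and in 11.4% of the windows of all genes tested. The genes with a match were ones that rose (Ezh1, Kmt5a) and ones that did not pass (Kdm3a, Kdm5b), and none of the 7 windows of genes that fell held these letters. The MYB core was in 1 of 50 windows, that of Setd6, and in 3.49% of the windows of all genes tested.

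Among the H3K4 methyltransferases, which act in COMPASS complexes, 3 of 6 rose, 1 fell and 2 did not pass. Setd1a and Setd1b, the catalytic subunits of the SET1 complexes, moved in opposite directions. Setd1a had 269 and 323 CPM in the knockdown libraries, against 94.9 and 123 CPM in the WT libraries (log2 fold change 1.44, SE 0.30). Setd1b had 20.7 and 52.6 CPM in knockdown cells, against 132 and 170 CPM in WT (log2 fold change -2.04, SE 0.43). The groups overlapped for neither gene, while of all genes tested 39.0% had both knockdown libraries above both WT libraries and 43.7% below. Per kb of transcript Setd1a was at 1770% and 839% of Setd1b in the knockdown and at 98.5% and 98.8% in WT. Kmt2a, the gene of MLL1, rose to 55.1 and 140.2 CPM in knockdown cells, against 7.33 and 11.8 CPM in WT (log2 fold change 3.35, SE 0.49). Kmt2c, an enhancer H3K4 monomethyltransferase gene, rose to 71.6 and 187 CPM, against 23.7 and 33.3 CPM in WT (log2 fold change 2.18, SE 0.45). Its relative Kmt2d overlapped between the groups, with 175 and 411 CPM in knockdown cells and 270.4 and 393 CPM in WT (log2 fold change -0.18, SE 0.42), and Kmt2b, needed in spermatogonia, did too (281 and 347 CPM, against 262 and 285 CPM; log2 fold change 0.20, SE 0.29). The rise of Setd1a did not pass with WT replicate 1 omitted (log2 fold change 1.25; edgeR, adjusted p = 0.0614) or on the meiotic-axis scaling (0.85; edgeR, adjusted p = 0.0773). Without knockdown replicate 2 the log2 fold change was 2.52 for Kmt2a, 1.33 for Kmt2c and -2.86 for Setd1b, and without knockdown replicate 1 it was 3.94, 2.79 and -1.45. Kmt2d passed as lower with knockdown replicate 2 omitted (-0.93; edgeR, adjusted p = 0.0309).

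These are among the longest transcripts of the set, and the knockdown libraries differed by length. Between the knockdown replicates the log2 level of Kmt2a differed by 1.34, that of Kmt2c by 1.38 and that of Kmt2d by 1.23, with replicate 2 the higher. Across the 51 tested genes Spearman's rho between this ratio and transcript length was 0.73 in the knockdown and 0.48 in WT, a description over genes that share the same libraries. Over all genes with a mean of at least 5 CPM the median log2 ratio of knockdown replicate 2 to replicate 1 was 0.63 for the 711 genes of 8 kb and over and -0.41 for the 2953 under 2 kb, and that of the WT replicates 0.46 and -0.22. The log2 fold change of knockdown over WT had a rho of 0.02 with transcript length over the 51 genes.

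**Figure D3:**
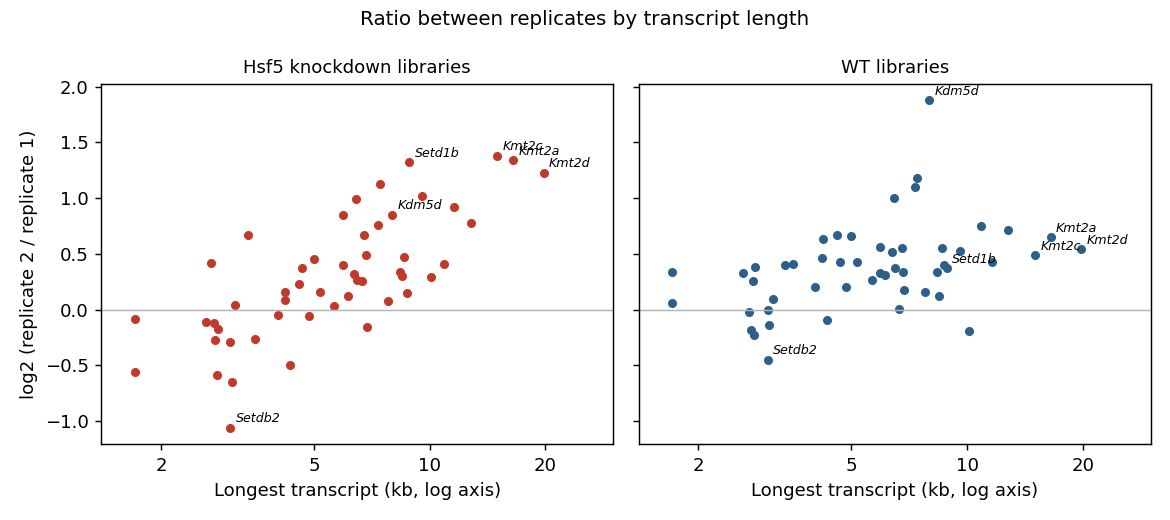
Log2 ratio of replicate 2 to replicate 1 (vertical axis) against the length of the longest annotated transcript (kb, log axis) for the 51 tested genes, with the knockdown libraries on the left and the WT libraries on the right. In the knockdown Kmt2a, Kmt2c and Kmt2d lie between 1.23 and 1.38 at the right, and in WT Kdm5d is highest at 1.88.

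Of the 6 H3K9 methyltransferase genes 2 rose and 4 did not pass (27.4% of all genes tested rose). The genes that rose were scarce in WT, as were Suv39h2 and Setdb2, which did not pass. Ehmt1 (GLP) and Ehmt2 (G9a) encode partners that dimerise to place mono- and dimethylation, and G9a is needed for meiotic prophase in the male germ line. Ehmt1 was at 48.6 and 64.4 CPM in the knockdown libraries, against 4.56 and 5.84 CPM in the WT libraries (log2 fold change 3.44, SE 0.38; edgeR, adjusted p = 0.000104). Ehmt2 was at 289.8 and 279.5 CPM in knockdown cells, against 443 and 508 CPM in WT, and both knockdown values were below both WT values (log2 fold change -0.74, SE 0.29; edgeR, adjusted p = 0.0522). It passed as lower with DESeq2 size factors, on the meiotic-axis scaling, with a 1 CPM minimum on the mean and with knockdown replicate 2 omitted (log2 fold changes -0.80, -1.34, -0.80 and -0.71). Per kb, Ehmt1 stood at 11.3% and 15.6% of Ehmt2 in the knockdown libraries and at 0.696% and 0.777% in the WT libraries, a ratio within a library that no scaling changes. Ehmt2 had the highest WT level per kb of the 51 genes.

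Suv39h1 and Suv39h2 make the trimethylation of pericentromeric heterochromatin, and Suv39h2 is the form enriched in testis. The X-linked Suv39h1 rose to 39.3 and 40.5 CPM in knockdown cells, against 4.56 and 4.94 CPM in WT (log2 fold change 3.07, SE 0.37). The autosomal Suv39h2 had 15.9 and 11.1 CPM in knockdown cells and 9.18 and 8.62 CPM in WT (log2 fold change 0.60, SE 0.42), and its groups did not overlap either. Suv39h1 was at 344% and 508% of Suv39h2 per kb in the knockdown and at 69% and 79.5% in WT, so the order of the pair differed between the groups. Setdb1, which silences transposons and is needed for silencing of the meiotic X, did not pass (168 and 172 CPM in knockdown cells, 124 and 149 CPM in WT; log2 fold change 0.31, SE 0.28), except with library totals only (0.75; edgeR, adjusted p = 0.0353). Setdb2 was barely detected, with 0.741 and 0.097 CPM in knockdown cells and 0.417 and 0.174 CPM in WT.

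Ezh1 and Ezh2 are the alternative catalytic subunits of Polycomb repressive complex PRC2, which methylates H3K27. Ezh1 rose to 75.1 and 79.8 CPM in the knockdown libraries, against 26.2 and 40.7 CPM in WT (log2 fold change 1.21, SE 0.33), a call lost with WT replicate 1 omitted (0.91; edgeR, adjusted p = 0.149) and on the meiotic-axis scaling (0.60; edgeR, adjusted p = 0.243). Ezh2 overlapped between the groups (123 and 81.5 CPM in knockdown cells, 120.3 and 103 CPM in WT; log2 fold change -0.12, SE 0.31). It passed as lower only on the meiotic-axis scaling (-0.75; edgeR, adjusted p = 0.0482). Per kb Ezh1 was at 40.4% and 64.9% of Ezh2 in the knockdown and at 14.4% and 26.3% in WT.

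Of the 5 H3K36 methyltransferase genes 1 rose and 4 did not pass, while 27.4% of all genes tested rose. Nsd1, needed for DNA methylation in the male germ line, rose to 150.1 and 257 CPM in knockdown cells, against 48.9 and 80.4 CPM in WT (log2 fold change 1.66, SE 0.38), and did not pass on the meiotic-axis scaling (1.09; edgeR, adjusted p = 0.0936). Setd2, whose H3K36 trimethylation spermatids need, had 220 and 279 CPM in knockdown cells and 215 and 271 CPM in WT, with overlapping groups (log2 fold change 0.04, SE 0.30). The log2 fold changes of Nsd2, Nsd3 and Ash1l were -0.45, -0.19 and 0.54 (SE 0.29, 0.29 and 0.36). Nsd2 passed as lower on the meiotic-axis scaling (-1.04; edgeR, adjusted p = 0.0234), and Ash1l as higher with library totals only (1.00; edgeR, adjusted p = 0.0476) and with knockdown replicate 1 omitted (1.00; edgeR, adjusted p = 0.0254). Dot1l, the H3K79 methyltransferase gene and the third of the set in WT level per kb, fell to 196 and 275 CPM in knockdown cells, against 510.1 and 645 CPM in WT (log2 fold change -1.29, SE 0.33). Its call was lost with WT replicate 2 omitted (-1.09; edgeR, adjusted p = 0.0824).

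The H4K20 methyltransferase genes were higher at 2 of 3. Kmt5a, which makes the monomethyl mark in dividing cells, rose to 95.4 and 87.5 CPM in knockdown cells, against 52 and 45.9 CPM in WT (log2 fold change 0.90, SE 0.28). Kmt5b, which adds further methyl groups, rose to 79.6 and 86.5 CPM, against 28.4 and 35.2 CPM in WT (log2 fold change 1.39, SE 0.30). Its paralog Kmt5c did not pass (38.8 and 32.1 CPM in knockdown cells, 24.7 and 29.6 CPM in WT; log2 fold change 0.39, SE 0.33). Kmt5a did not pass without either WT replicate and Kmt5b did not with WT replicate 1 omitted (edgeR, adjusted p = 0.12, 0.172 and 0.0507), nor did they on the meiotic-axis scaling.

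The other SET domain genes, many of which act on proteins that are not histones, comprised 6 genes that rose, 1 that fell and 4 not past the test. The fall was that of Smyd1, a methyltransferase gene known from muscle, to 4.21 and 7 CPM in the knockdown libraries, against 30.3 and 40.1 CPM in the WT libraries (log2 fold change -2.65, SE 0.42). The remaining 4 members of the Smyd family rose. Smyd5 had 54 and 48 CPM in knockdown cells, against 5.9 and 7.82 CPM in WT (log2 fold change 2.89, SE 0.37), and Smyd4 had 28.2 and 23.4 CPM, against 4.2 and 5.74 CPM in WT (log2 fold change 2.38, SE 0.41). Smyd2, whose product also methylates p53, had 45.6 and 43.3 CPM, against 15.1 and 19.3 CPM in WT (log2 fold change 1.37, SE 0.34). Smyd3 had 14.4 and 12.8 CPM, against 4.53 and 5.21 CPM in WT (log2 fold change 1.49, SE 0.43). The groups overlapped for none of the 5 Smyd genes, which is common here. Over all genes tested, both knockdown libraries lay above both WT libraries for 39.0% and below them for 43.7%. Setd6 and Setd7, which methylate transcription factors among other proteins, also rose. Setd6 had 17.6 and 11.8 CPM in knockdown cells and 5.75 and 6.01 CPM in WT (log2 fold change 1.32, SE 0.43), and Setd7 had 9.89 and 22.3 CPM in knockdown cells and 1.97 and 5.07 CPM in WT (log2 fold change 2.19, SE 0.60). Setd3, the actin histidine methyltransferase gene, Setd4, Setd5 and Kmt2e did not pass, with log2 fold changes of 0.35, 0.44, 0.30 and -0.22 (SE 0.32, 0.40, 0.34 and 0.41). Setd3 passed as higher with library totals only (0.77; edgeR, adjusted p = 0.0442). Smyd2 and Setd6 did not pass with WT replicate 1 omitted (edgeR, adjusted p = 0.0579 and 0.0644), Setd6 with knockdown replicate 1 omitted (adjusted p = 0.123) and Setd7 with knockdown replicate 2 omitted (log2 fold change 1.48, adjusted p = 0.087). Without WT replicate 2 the log2 fold change of Setd7 was 3.05. On the meiotic-axis scaling Smyd2, Smyd3, Setd6 and Setd7 did not pass.

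**Figure D4:**
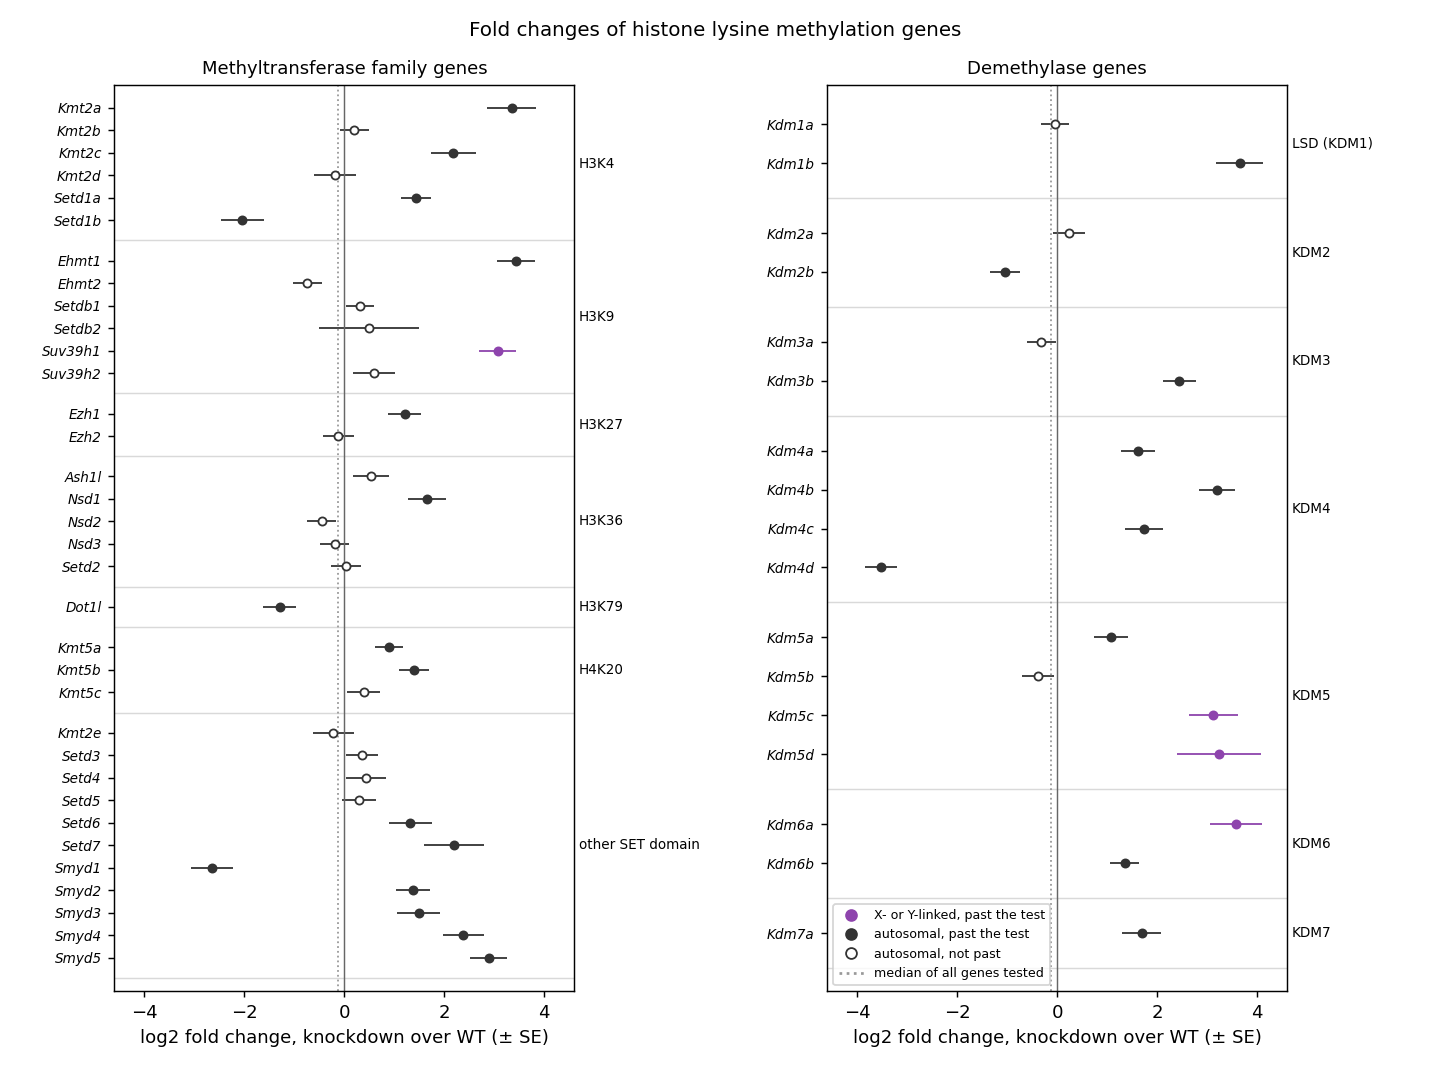
Log2 fold change of knockdown over WT with its standard error for the 51 tested genes, grouped as in the plot of levels; filled points passed edgeR's test, open points did not, purple marks X- or Y-linked genes and the dotted line is the all-gene median of -0.12. The 4 purple points lie between 3.07 and 3.58, and Kdm4d is lowest at -3.53.

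The demethylase gene with the largest fall was Kdm4d. It encodes a demethylase of H3K9 that is enriched in testis, and it fell to 16.2 and 22 CPM in the knockdown libraries, against 222 and 219.6 CPM in the WT libraries (log2 fold change -3.53, SE 0.32; edgeR, adjusted p = 3.56e-05). In WT it had the fourth-highest level per kb of the set, and in the knockdown it stood at rank 40. The 3 other KDM4 genes, which are broadly expressed and act on H3K9 and H3K36, rose. Kdm4b had 96 and 112 CPM in knockdown cells, against 8.67 and 14.1 CPM in WT (log2 fold change 3.19, SE 0.36). Kdm4a had 58.2 and 75.2 CPM, against 18.5 and 25.1 CPM in WT (log2 fold change 1.61, SE 0.34), and Kdm4c had 29.9 and 33.4 CPM, against 7.9 and 11.1 CPM in WT (log2 fold change 1.74, SE 0.38). Kdm4b was at 348% and 301% of Kdm4d per kb in the knockdown and at 2.3% and 3.78% in WT. The summed level of the KDM4 genes was 200 and 243 CPM in knockdown cells and 257 and 270 CPM in WT. Kdm4a and Kdm4c did not pass on the meiotic-axis scaling. Kdm4d has a close copy, Kdm4dl, so its counts are less certain.

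Of the LSD, KDM2 and KDM3 demethylase genes, Kdm1b and Kdm3b rose, Kdm2b fell and Kdm1a, Kdm2a and Kdm3a did not pass. Kdm1a (LSD1), an amine oxidase that acts on H3K4, did not pass (146 and 120 CPM in knockdown cells, 138 and 138 CPM in WT; log2 fold change -0.05, SE 0.28). Kdm1b (LSD2), known for setting up imprints in oocytes, rose to 25 and 34.5 CPM, against 1.73 and 3.02 CPM in WT (log2 fold change 3.65, SE 0.47; edgeR, adjusted p = 0.000242). This was the largest rise of the set. Kdm3a, which spermatids need to switch on protamine and transition protein genes, had 358 and 343 CPM in knockdown cells and 406 and 467 CPM in WT (log2 fold change -0.32, SE 0.29). It passed as lower only on the meiotic-axis scaling (-0.92; edgeR, adjusted p = 0.0299). Kdm3b rose to 151 and 188 CPM, against 25.5 and 36.8 CPM in WT (log2 fold change 2.44, SE 0.33). Kdm2a, an H3K36 demethylase gene, overlapped between the groups (log2 fold change 0.23, SE 0.32), and Kdm2b fell to 64.8 and 72.7 CPM, against 121 and 164 CPM in WT (log2 fold change -1.05, SE 0.30). The call of Kdm2b was lost with library totals only (-0.61; edgeR, adjusted p = 0.093) and with WT replicate 2 omitted (-0.80; edgeR, adjusted p = 0.17).

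**Figure D5:**
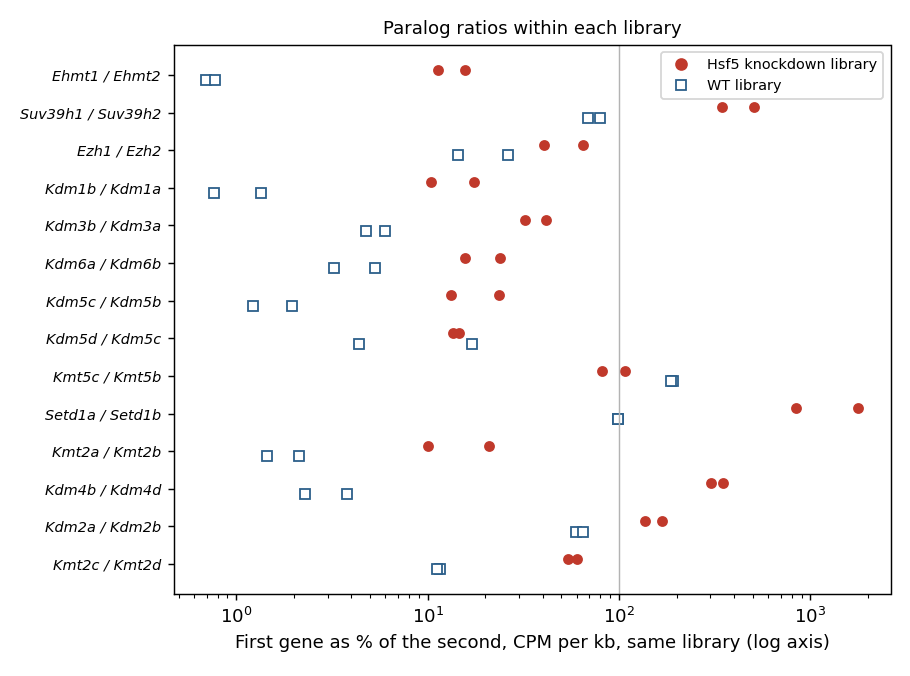
Level per kb of the first gene of a pair as a percentage of the second in the same library (log axis), for 14 pairs; filled circles are the knockdown libraries and open squares the WT libraries. The circles lie right of the squares for pairs such as Ehmt1 over Ehmt2, for Kmt5c over Kmt5b they lie left (108% and 81.9% against 192% and 186%), and Kdm5d over Kdm5c overlaps.

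The pairs of related genes, and which gene of a pair stands first, were chosen after their values were seen, so how many pairs shift one way says nothing. Kdm1b over Kdm1a stood at 10.4% and 17.5% in the knockdown and at 0.762% and 1.34% in WT. Kmt2a over Kmt2b was at 10.1% and 20.8% in the knockdown and at 1.44% and 2.13% in WT, and Kdm3b over Kdm3a at 32.1% and 41.7% in the knockdown and at 4.79% and 6.01% in WT.

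The KDM5 and KDM6 genes, demethylases of H3K4 and of H3K27, include the sex-linked members. Kdm5b, the most abundant, had 506 and 562 CPM in knockdown cells and 602 and 794 CPM in WT (log2 fold change -0.39, SE 0.32), and passed as lower only on the meiotic-axis scaling (-0.98; edgeR, adjusted p = 0.0394). Kdm5a rose to 164 and 218 CPM, against 67.9 and 114 CPM in WT (log2 fold change 1.07, SE 0.34). That call was lost with WT replicate 1 omitted (0.72; edgeR, adjusted p = 0.279), with knockdown replicate 2 omitted (0.84; edgeR, adjusted p = 0.0638) and on the meiotic-axis scaling. Kdm6b rose to 109.9 and 131 CPM, against 47.2 and 47.5 CPM in WT (log2 fold change 1.35, SE 0.29). Kdm7a, whose product acts on H3K9 and H3K27, rose to 86.4 and 176 CPM, against 33.1 and 48.1 CPM in WT (log2 fold change 1.69, SE 0.39), with 1.09 without knockdown replicate 2. Neither Kdm6b nor Kdm7a passed on the meiotic-axis scaling (edgeR, adjusted p = 0.0918 and 0.097).

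All 4 sex-linked genes of the set rose, and their median was 3.18 on the log2 scale, while the 47 tested autosomal members had 0.54. For the X-linked Kdm5c, Kdm6a and Suv39h1 the background is that 67.9% of the 817 X-linked genes tested rose, with a median of 2.89, whereas 26.5% of the autosomal genes rose and 33.8% fell. No such background was computed for the Y-linked Kdm5d. X-linked genes as a whole took 1.45% and 2.01% of counts in the knockdown libraries and 0.245% and 0.265% in the WT libraries. Kdm6a (UTX) had 15.4 and 28 CPM in knockdown cells, against 1.37 and 2.26 CPM in WT (log2 fold change 3.58, SE 0.52), which is 12-fold higher. Kdm5c had 49.4 and 98.5 CPM, against 5.48 and 11.5 CPM in WT (log2 fold change 3.12, SE 0.49), and Suv39h1, given with the H3K9 genes, was 8.4-fold higher. The Y-linked Kdm5d had 8.94 and 16.5 CPM, against 0.298 and 2.43 CPM in WT (log2 fold change 3.23, SE 0.84). Its WT libraries stood far apart, at 10 and 70 counts. Its log2 fold change was 2.36 without WT replicate 1 and 5.42 without WT replicate 2, and it did not pass on the meiotic-axis scaling (2.62; edgeR, adjusted p = 0.0618). Kdm5c gave 3.78 without WT replicate 2 and 2.53 without knockdown replicate 2. Kdm5c and Kdm5d are X and Y copies of one ancestral gene and may share reads, so the split between them is less certain. Among autosomal members Kdm1b, Ehmt1, Kmt2a and Kdm4b rose by as much, with log2 fold changes of 3.65, 3.44, 3.35 and 3.19. Markers of several cell types rose with the sex-linked genes. The median log2 fold change was 3.78 for Sertoli, 3.63 for peritubular, 3.5 for spermatogonial and 3.03 for macrophage and immune markers. It was 2.31 for Leydig, 1.41 for endothelial and 1.13 for leptotene and zygotene markers, and -3.43 for pachytene and -12.3 for spermatid markers. The part of these lists was not tested.

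Genes that work with these enzymes were read from a list of 62 that was written by function and not by how they moved, though with results of these data known. Of the 62, 20 rose, 15 fell and 27 did not pass, and the median log2 fold change was 0.26, against 27.4% higher, 33.5% lower and a median of -0.12 over all genes tested. These shares are also the background for the counts in each smaller list. On the meiotic-axis scaling 11 rose and 21 fell, where 3670 of all 23594 genes tested rose and 9298 fell. Of 12 COMPASS subunits and partners 3 rose and 1 fell. Hcfc1, an X-linked cofactor gene, and Wdr82, of the SET1 complexes, had log2 fold changes of 3.73 (SE 0.56) and of 1.17 (SE 0.28), and Ash2l, a core subunit, -1.15 (SE 0.31). The log2 fold change of Hcfc1 was 4.63 with WT replicate 2 omitted and 3.02 with knockdown replicate 2 omitted. The calls of Wdr82 and Ash2l were lost with WT replicate 1 omitted (edgeR, adjusted p = 0.0958 and 0.0714), and that of Wdr82 on the meiotic-axis scaling (0.59, adjusted p = 0.184). Of 10 PRC2 genes 5 rose and 2 fell: Jarid2 and the X-linked inhibitor Ezhip had log2 fold changes of 2.03 (SE 0.30) and of 4.01 (SE 0.60), and the Polycomb-like genes Phf1 and Mtf2 -1.25 (SE 0.32) and -1.01 (SE 0.28). Ezhip stood at 7.67 and 8.22 CPM in knockdown cells, against 0.358 and 0.626 CPM in WT. Phf1 and Mtf2 did not pass without WT replicate 1, nor Mtf2 without WT replicate 2 or with library totals only (edgeR, adjusted p = 0.0528, 0.0791, 0.0981 and 0.0893).

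Of 11 partners and readers of H3K9 methylation 2 were higher and 2 lower, while 7 did not pass. Wiz, a partner of G9a and GLP, and the HP1 gene Cbx3 had log2 fold changes of 1.26 (SE 0.31) and of 1.01 (SE 0.33), whereas Atf7ip2, a meiotic partner of SETDB1, and the HP1 gene Cbx5 had -1.48 (SE 0.34) and -0.93 (SE 0.30). The calls of Wiz, Cbx3 and Cbx5 were lost with WT replicate 1 omitted (edgeR, adjusted p = 0.136, 0.0636 and 0.077) and those of Cbx3 and Cbx5 also without WT replicate 2 and without knockdown replicate 1. Wiz and Cbx3 did not pass on the meiotic-axis scaling, nor Cbx5 with library totals only. Among 8 genes listed as partners and readers for DOT1L and H3K36 methylation 2 rose and 4 fell, and their summed level was 1460 and 1220 CPM in knockdown cells and 3670 and 3120 CPM in WT. Morf4l1 alone took 513.4 and 301.5 CPM of these sums in knockdown cells and 2029 and 1323 CPM in WT. Mllt10, a DOT1L partner, and Morf4l1, a reader of H3K36 methylation, had log2 fold changes of -1.52 (SE 0.32) and of -2.04 (SE 0.41), and Zmynd11 and Phf20l1 2.35 (SE 0.36) and 1.28 (SE 0.33). Phf20l1 did not pass without WT replicate 1, without knockdown replicate 2 or on the meiotic-axis scaling (edgeR, adjusted p = 0.0863, 0.0519 and 0.197). Of 8 partners of LSD1 and other demethylases 3 rose and 3 fell, with Rcor2 and Zmynd8 at 4.0 (SE 0.40) and 3.35 (SE 0.51) and Rcor3 and Phf21a at -2.43 (SE 0.31) and -1.66 (SE 0.29) on the log2 scale. Without WT replicate 2 Zmynd8 was at 4.03.

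JmjC and PR/SET genes outside the naming rule also moved both ways. Of 8 JmjC genes 4 rose and 1 fell. The fall was that of Phf2, an H3K9 demethylase gene, to 27.1 and 34.2 CPM in knockdown cells, against 376 and 525 CPM in WT (log2 fold change -3.88, SE 0.35). The X-linked Phf8 and the Y-linked Uty, the counterpart of Kdm6a, rose by 2.88 (SE 0.44) and by 2.75 (SE 0.57) on the log2 scale. Without knockdown replicate 2 these were 2.24 and 2.12. Of 5 other methyltransferase genes Prdm16 rose, Prdm8 and Prdm2 fell, and Setmar and Mecom did not pass. Prdm8 was at 0.127 and 0.145 CPM in knockdown cells, against 31.5 and 16.7 CPM in WT. The log2 fold changes of Prdm16 and Prdm2 were 1.44 (SE 0.51) and -1.09 (SE 0.33). The calls of both were lost with WT replicate 2 omitted (edgeR, adjusted p = 0.0954 and 0.104), that of Prdm16 also with knockdown replicate 2 omitted (0.131) and on the meiotic-axis scaling (0.207), and that of Prdm2 with knockdown replicate 1 omitted (0.0631) and with library totals only (0.117).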

How the data were processed

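RNA-seq of polyadenylated RNA covered purified pachytene spermatocytes, in 2 Hsf5 knockdown and 2 WT libraries. The authors deposited 1 table of raw read counts per gene, and Trim Galore 0.6.10, HISAT2 2.2.1, featureCounts 1.5.3, DESeq2 1.46.0 and the build mm39 are named per the submitters' processing notes. Neither annotation, strandedness nor the handling of multi-mapping reads is given in the sources used here: counts of close copies and of overlapping or antisense genes are less certain. Columns were matched to samples by name.

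The deposited counts went into edgeR 4.0.16 (R 4.3.3): filterByExpr kept 23594 of 36809 genes with a count, libraries were scaled by TMM (factors 1.11 and 1.22 in the knockdown, 0.854 and 0.865 in WT), and knockdown was set against WT by the quasi-likelihood F test, with p-values adjusted after Benjamini-Hochberg over all genes tested and a threshold of 0.05 (common biological coefficient of variation 0.356). Standard errors are the log2 fold change over the square root of F. Replicates differed by more than counting noise (chi-square over its degrees of freedom 93.8 in the knockdown, 44.1 in WT), and each library was treated as 1 replicate. This spread may be technical and does not show that the libraries come from different animals.

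Lengths are of the longest GENCODE M21 transcript (84.9% of tested genes), and chromosomes come from RefSeq GRCm38 by symbol (90.8% matched). Of 50 promoter windows, 40 were followed by bases found in a transcript of the gene. Ratios between replicates are of log2 CPM with 0.5 added. Members, lists and tests were chosen with earlier results of these data known. Library values are given at least for members past the test with a log2 fold change of 1 or more in size, sex-linked members and those with known roles in male germ cells, and partners are named by the smallest p, up to 2 per list and direction. Alternatives were DESeq2 size factors, library totals, a meiotic-axis scaling on 24 synaptonemal complex and cohesin genes, the Wald test of DESeq2 1.42.0, no low-count filter or one at a mean of 1 CPM, a block for the replicate number, the omission of each library, and a minimum log2 fold change of 1. The meiotic-axis list also holds general cohesin genes such as Rad21 and the X-linked Smc1a and Stag2. Of the X-linked genes tested 67.9% rose, and the part of Smc1a and Stag2 in this scaling was not tested. The list shares Sycp3, Hormad1 and Rec8 with the leptotene and zygotene markers.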

Additional observations from a re-analysis of the deposited data

How the results depend on the processing

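Of the 31 genes past the test 14 passed under every alternative fit and 17 were lost under at least 1, of which 10 when 1 library was left out. None changed sign. The meiotic-axis scaling gave 11 higher and 10 lower, partners 11 higher, and a median of 0.31, and library totals only gave a median of 1.34 and an Hsf5 log2 fold change of -0.55. On the meiotic-axis scaling 3670 of all 23594 genes tested were higher and 9298 lower. The replicate number as a block (replicate block) gave 26 higher and 6 lower members, with 1 call changed (Ehmt2, -0.74; edgeR, adjusted p = 0.0139), and 21 higher and 16 lower partners. Replicate differences correlated between the groups (r = 0.48 over 12772 genes), but 2 pairs do not show that the numbers pair samples. Leaving out 1 library gave 19 to 26 higher, 3 to 7 lower (3 without WT replicate 2), partners 13 to 19 higher and 9 to 14 lower, and Hsf5 from -1.13 to -0.79. Genes that did not pass had log2 fold changes of the other sign on the meiotic-axis scaling for Ash1l (0.00), Kdm2a (-0.35), Kmt2b (-0.37), Kmt5c (-0.24), Setd2 (-0.54), Setd3 (-0.29), Setd4 (-0.18), Setd5 (-0.26), Setdb1 (-0.29), Setdb2 (-0.20) and Suv39h2 (-0.03). With library totals only the same held for Ezh2 (0.30), Kdm1a (0.38), Kdm3a (0.12), Kdm5b (0.05), Kmt2d (0.28), Kmt2e (0.24) and Nsd3 (0.26), and with DESeq2 size factors or a mean of at least 1 CPM for Setd2 (-0.02 each). Without 1 library they ranged over Ezh2 (-0.38 to 0.15), Kdm1a (-0.13 to 0.09), Kdm2a (-0.04 to 0.56), Kmt2d (-0.93 to 0.37), Kmt2e (-0.68 to 0.46), Nsd3 (-0.34 to 0.02), Setd2 (-0.15 to 0.27), Setd5 (-0.08 to 0.66) and Setdb2 (-1.50 to 1.32). The DESeq2 Wald test and no filter changed no member's call. The causes of these shifts were not tested, beyond the scaling's own shift of the all-gene median. With 2 libraries a group, the depth of Setdb2 and Setd9-ps limits what can be said of them.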
